A study of Mus musculus with 22 samples.

Results

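The let-7 and miR-98 family was followed by the 5p (guide-arm) product of each of its 9 members in round spermatids (RS): mmu-let-7a-5p, mmu-let-7b-5p, mmu-let-7c-5p, mmu-let-7d-5p, mmu-let-7e-5p, mmu-let-7f-5p, mmu-let-7g-5p, mmu-let-7i-5p and mmu-miR-98-5p. They were taken by name, as all 5p products of the family, from the 1966 mature miRNA names of the count table, and all 9 were found. They are called let-7a to let-7i and miR-98 below.

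RS are the haploid germ cells that follow meiosis and precede the elongating spermatid. They were isolated by gradient sedimentation from the testes of mice 75 to 85 days old, and small RNA was sequenced in 22 libraries. GRTH (DDX25) is a testis RNA helicase, and mice without a working form make RS that fail to elongate. In batch a, 5 libraries came from wild-type mice (WT) and 5 from mice lacking GRTH (KO). In batch b, 6 came from WT mice and 6 from knock-in mice (KI), whose GRTH is a human gene with an arginine-to-histidine substitution and which lack the phosphorylated form of the protein. The genotypes are whole-animal genotypes, so the somatic cells of the testis carry them too. The labels do not say whether libraries of a group came from separate animals, so the p-values measure the spread between these libraries, which may be technical. KO was measured only in batch a and KI only in batch b, and the batch names are those of the labels.

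Members of the let-7 family are small RNAs that guide Argonaute proteins to messenger RNAs which pair with bases 2 to 8 of the miRNA, the seed. Because the seed is shared, the members are thought to have largely overlapping targets. The family is known for rising as cells differentiate, and in many tissues its precursors are held back by the RNA-binding protein LIN28.

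The mature sequences are shown because the whole family rests on one seed and its members are told apart by few bases. They are from RefSeq on GRCm38.p6, written 5′ to 3′, with the seed in capitals:
mmu-let-7a-5p: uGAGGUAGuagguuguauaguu
mmu-let-7b-5p: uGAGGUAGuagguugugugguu
mmu-let-7c-5p: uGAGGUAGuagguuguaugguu
mmu-let-7d-5p: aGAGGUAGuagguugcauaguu
mmu-let-7e-5p: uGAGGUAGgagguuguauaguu
mmu-let-7f-5p: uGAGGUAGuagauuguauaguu
mmu-let-7g-5p: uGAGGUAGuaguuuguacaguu
mmu-let-7i-5p: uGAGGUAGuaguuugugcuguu
mmu-miR-98-5p: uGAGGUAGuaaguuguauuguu

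All 9 were 22 bases long and had the seed GAGGUAG. Counted from 1 at the 5′ end, let-7c differed from let-7a by A19G only, let-7e by U9G only and let-7f by G12A only. let-7b carried A17G and A19G, let-7d U1A and U16C, let-7g G12U and U18C, and miR-98 G11A and A19U. let-7i was the farthest from let-7a, with G12U, A17G, U18C and A19U. Over the 36 pairs of members, the number of differing bases ran from 1 to 6. The first 18 bases of let-7a and let-7c were identical, and so were the first 16 of let-7b and let-7c. A read that ended before the differing base could not be assigned to one of such a pair by its sequence, and how many reads did so was not analysed here. Of the other names in the table, mmu-let-7k and mmu-miR-1961 had the same seed, and both had 0 counts in all 22 libraries.

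The 9 members came from 12 loci on GRCm38, and let-7a, let-7c and let-7f had 2 loci each. On the minus strand of chromosome 13, let-7a (48538239 to 48538260), let-7f (48537889 to 48537910) and let-7d (48536078 to 48536099) lay in an exon of the long noncoding RNA 6720427I07Rik. The second let-7f locus (X, 151912353 to 151912374) and miR-98 (X, 151913229 to 151913250) lay on the plus strand in introns of the ubiquitin ligase gene Huwe1. On the plus strand of chromosome 15, let-7c (85706616 to 85706637) and let-7b (85707325 to 85707346) lay in an exon of the noncoding RNA Lncppara.

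The other loci stood outside these 3 clusters. The second let-7a locus (chromosome 9, 41536732 to 41536753, plus strand) was in an intron of the noncoding RNAs 3110039I08Rik and Gm49317. The second let-7c locus (chromosome 16, 77599672 to 77599693, plus strand) was in an intron of Mir99ahg. let-7e (chromosome 17, 17830366 to 17830387, plus strand) was in an intron of Spaca6, a sperm-egg fusion gene, and let-7g (chromosome 9, 106178846 to 106178867, plus strand) was in an intron of Wdr82. let-7i (chromosome 10, 122985698 to 122985719, minus strand) was in an exon of the pseudogene D630033A02Rik.

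Total counts per library ranged from 559957 to 1081333 in batch a and from 2067322 to 3239357 in batch b. Levels are given as CPM, counts brought to a common library size, with libraries scaled by the trimmed mean of M-values (TMM). Before TMM scaling, 3 counts, taken as the smallest measurable amount, were worth 0.926 to 5.36 CPM. Every member was above this floor in every library, with miR-98 the lowest at 25 to 95 counts. The miRNAs listed for RS and late germ cells, led by miR-34c-5p, summed to 188468 to 445619 CPM, against 2993 to 6268 CPM for the blood and immune list and 773 to 4955 CPM for the vessel, smooth muscle and stroma list.

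The family was carried by let-7a in every group. Over the 22 libraries let-7a averaged 31822 CPM, which placed it 5th among all names, and held 58.9% of the counts of the 9 members. let-7f followed at 8495 CPM, let-7c at 6164, let-7g at 4058, let-7i at 1803, let-7b at 1004, let-7d at 541, let-7e at 127 and miR-98 at 35.1 CPM. All members have the same length, so their levels can be set side by side, but ligation and sequence preferences of the kit were not measured.

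As counted, this order varied little between libraries. In 22 of 22 libraries let-7a was above let-7f, let-7g above let-7i, let-7i above let-7b, let-7d above let-7e and let-7e above miR-98. let-7f was above let-7c in 21 libraries, let-7b above let-7d in 21, and let-7c above let-7g in 19, so these 3 neighbouring pairs did not separate in every library. It is not stated whether a read that fits 2 loci was counted once or at both. However, miR-297b-3p and miR-297c-3p had the same fit in KO (log2 difference -0.605, SE 0.118 for each). That would follow if reads were counted under each name they fit. The levels of let-7a, let-7c and let-7f would then be too high beside members with a single locus. With the counts of let-7a, let-7c and let-7f divided by their 2 loci, let-7a still held 51.7% of the family and let-7f 13.8%, but let-7g, at 13.1%, moved above let-7c, at 9.99%, so the rank of let-7c depends on how such reads were counted. The counts of these 3 members were even numbers in 13, 14 and 14 of the 22 libraries. Evenness cannot decide the question, because a read that fit a single locus would turn an even count odd.

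**Figure D1:**
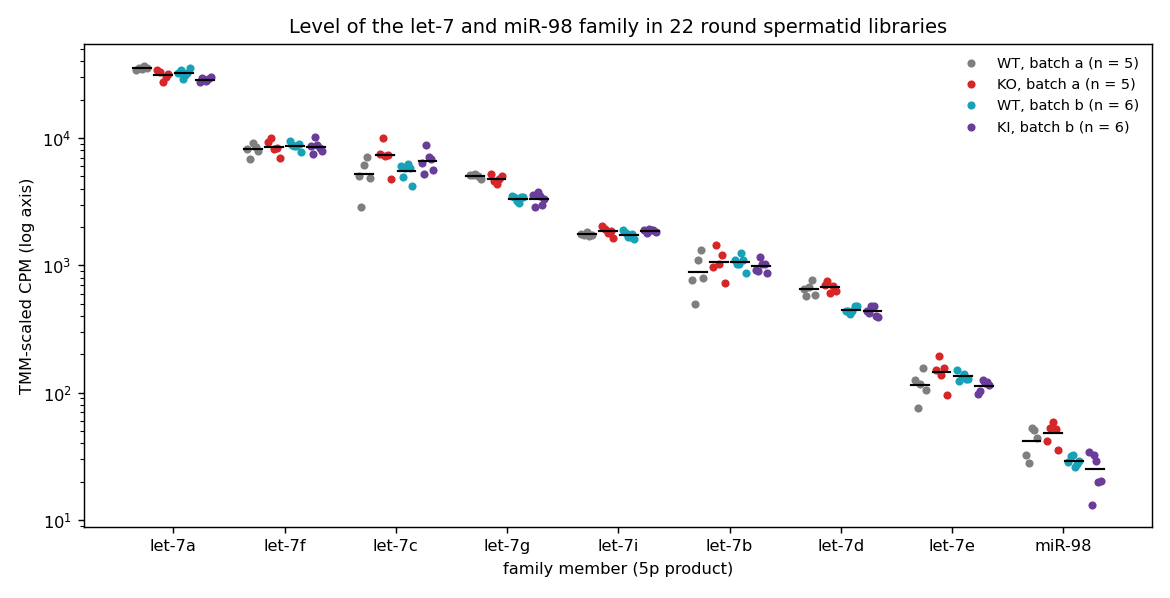
TMM-scaled CPM (log axis) of the 9 family members in the 22 libraries, ordered by mean level; points are libraries and black bars are group means. let-7a lies between 27455 and 36782 CPM in all 4 groups and miR-98 between 13.1 and 59.2 CPM, and let-7g and let-7d are lower in batch b than in batch a.

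The family sum made up 6.34% ± 0.525 of all counts in the WT libraries of batch a and 6.84% ± 0.729 in those of KO (mean ± SD, n = 5 each). In batch b the WT libraries gave 4.52% ± 0.111 and the KI libraries 4.64% ± 0.253 (mean ± SD, n = 6 each). The KO and KI differences of 0.496 and 0.112 percentage points were smaller than the SD of the KO and KI libraries. The batches, in contrast, did not overlap, with 5.72% to 7.96% in batch a and 4.35% to 4.94% in batch b. On the TMM scale used for the single members the picture was not the same. The summed CPM were then lower in KO, at 55990 ± 5005 against 57086 ± 3104 in WT (mean ± SD, n = 5 each), and lower in KI, at 50682 ± 2234 against 53266 ± 1884 in WT (mean ± SD, n = 6 each). The batches overlapped on that scale, with 50973 to 62141 CPM in batch a and 48181 to 54880 CPM in batch b, so neither the direction of the family sum nor its batch gap held under both scales.

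Loss of GRTH went with more let-7c and slightly less let-7a, the most abundant member. Of the 9 members, all tested, 2 passed an adjusted p of 0.1, 1 higher and 1 lower. Over the 334 miRNAs tested, 41.9% passed, 21.3% higher and 20.7% lower, against which 2 of 9 members stood. The median log2 fold change of the members was 0.11 and that of all miRNAs 0.015, with 7 members above 0 and 2 below. Without TMM, scaled by library total alone, 101 of 145 calls over all miRNAs were higher in place of 71 of 140. No member separated KO from WT without overlap, against 20.1% of the miRNAs tested.

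let-7c read 4984, 2884, 6079, 7099 and 4890 CPM in the 5 WT libraries of batch a, and 7494, 10054, 7214, 7308 and 4750 CPM in the 5 KO libraries. Of the KO values, 4 were above the highest WT value, and KO replicate 5 lay inside the WT range. A summed list of vessel, smooth muscle and stroma miRNAs, described further on, was also higher in KO, at 1947 to 4048 CPM against 773 to 2140 CPM, and its part in the let-7c difference was not tested. In bulk libraries, fewer cells of a type and less RNA per cell cannot be told apart. The let-7c difference was 0.53 on the log2 scale (SE 0.22, 1.45-fold, edgeR quasi-likelihood test, adjusted p = 0.0892). let-7a read 34168, 35618, 34646, 36782 and 35200 CPM in WT and 34383, 33152, 27542, 30244 and 32053 CPM in KO. Only KO replicate 1 reached into the WT range, and the difference was -0.14 on the log2 scale (SE 0.06, edgeR adjusted p = 0.0731).

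Both calls stood close to the threshold. That of let-7c was lost with a replicate block (edgeR adjusted p = 0.104), with a mean of at least 10 CPM as the filter (0.105), and without WT replicates 1, 2 or 5 or KO replicates 1, 2, 3 or 4 (0.112 to 0.225, log2 fold change 0.38 to 0.53), while its direction held in every fit. That of let-7a was lost with DESeq2 (adjusted p = 0.153), by library total (edgeR, 0.683, the log2 difference shrinking to -0.031), RLE scaling (0.130), no filter (0.102), the block (0.159), and without WT replicates 2, 3 or 4 or KO replicates 3 or 4 (0.112 to 0.143).

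The other members did not pass in KO. let-7e, encoded in Spaca6, read 76 to 157 CPM in WT and 96 to 192 CPM in KO, the log2 difference being 0.37 (SE 0.20, adjusted p = 0.178 by edgeR), and passed without WT replicate 4 (adjusted p = 0.0874) or KO replicate 5 (0.0702). let-7b, the neighbour of let-7c on chromosome 15, read 498 to 1314 CPM in WT and 723 to 1436 CPM in KO, with a log2 difference of 0.29 (SE 0.24). let-7i differed by 0.11 (SE 0.07) and passed without KO replicate 5 (adjusted p = 0.0867) and by library total (0.0610). let-7f differed by 0.10 (SE 0.10), let-7d by 0.09 (SE 0.10), miR-98 by 0.23 (SE 0.21) and let-7g by -0.05 (SE 0.06), the last turning to 0.06 by library total. The 95% interval of the let-7g difference ran from -0.17 to 0.07, and that of let-7f from -0.09 to 0.30.

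In KI, the direction for let-7c and let-7a was the one seen in KO, but the passing members were let-7a, let-7e and let-7i. Of the 9 members, 3 passed, 1 higher and 2 lower. Over the 387 miRNAs tested, 38.0% passed, 18.1% higher and 19.9% lower. The median log2 fold change was -0.02 for the members and 0.00089 for all miRNAs, and 3 members were above 0. Scaled by library total alone, 96 of 149 calls over all miRNAs were higher in place of 70 of 147. No member separated KI from WT without overlap, against 14.5% of the miRNAs tested.

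let-7a ranged from 28933 to 35289 CPM (median 32252) in the 6 WT libraries of batch b and from 27455 to 30014 CPM (median 28691) in the 6 KI libraries. The highest KI library was above only the lowest WT library, and the difference was -0.15 on the log2 scale (SE 0.04, edgeR adjusted p = 0.0220). let-7e ranged from 124 to 149 CPM (median 131) in WT and from 97.5 to 125 CPM (median 117) in KI, the log2 difference being -0.22 (SE 0.09, adjusted p = 0.0832 by edgeR). let-7i ranged from 1604 to 1893 CPM (median 1718) in WT and from 1797 to 1930 CPM (median 1895) in KI, the log2 difference being 0.14 (SE 0.05, adjusted p = 0.0700 by edgeR).

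let-7c ranged from 4157 to 6234 CPM (median 5795) in WT and from 5221 to 8724 CPM (median 6630) in KI. Its log2 difference of 0.29 (SE 0.13, 1.22-fold) narrowly missed the threshold (edgeR adjusted p = 0.103), and passed with DESeq2 (0.0997) and with 6 of the 7 other settings (edgeR, 0.00329 with the replicate block to 0.0995), but not in the fit of all 4 groups (0.261). It also passed without WT replicate 4 or KI replicates 1, 2 or 6 (0.0453 to 0.0748). The stroma sum ran from 2211 to 4955 CPM in KI and from 1423 to 2363 CPM in WT.

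The calls in KI were also near the threshold. let-7a lost its call by library total (edgeR adjusted p = 0.225, the log2 difference shrinking to -0.061), with no filter (0.170), and without WT replicates 2 or 6 or KI replicate 1 (0.103 to 0.239, and -0.083 on the log2 scale without KI replicate 1). let-7e lost it by library total (0.279), with no filter (0.322), in a fit of all 4 groups (0.213), and without any 1 of 8 libraries, WT replicates 1, 3, 4, 5 and 6 and KI replicates 1, 2 and 6 (0.103 to 0.303). let-7i lost it with no filter (0.354), in the fit of all 4 groups (0.157), and without WT replicates 3 or 6 or KI replicates 3 or 4 (0.103 to 0.189).

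The remaining members did not pass in KI. let-7f differed by -0.0078 (SE 0.07), with a 95% interval from -0.15 to 0.13. let-7g differed by 0.02 (SE 0.06, interval -0.10 to 0.14) and let-7d by -0.02 (SE 0.07, interval -0.16 to 0.12). let-7b differed by -0.09 (SE 0.10) and miR-98 by -0.19 (SE 0.19). The signs of let-7d and let-7f turned by library total, to 0.07 and 0.08, and that of let-7f also with RLE scaling and with the 10 CPM filter, both to 0.01.

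**Figure D2:**
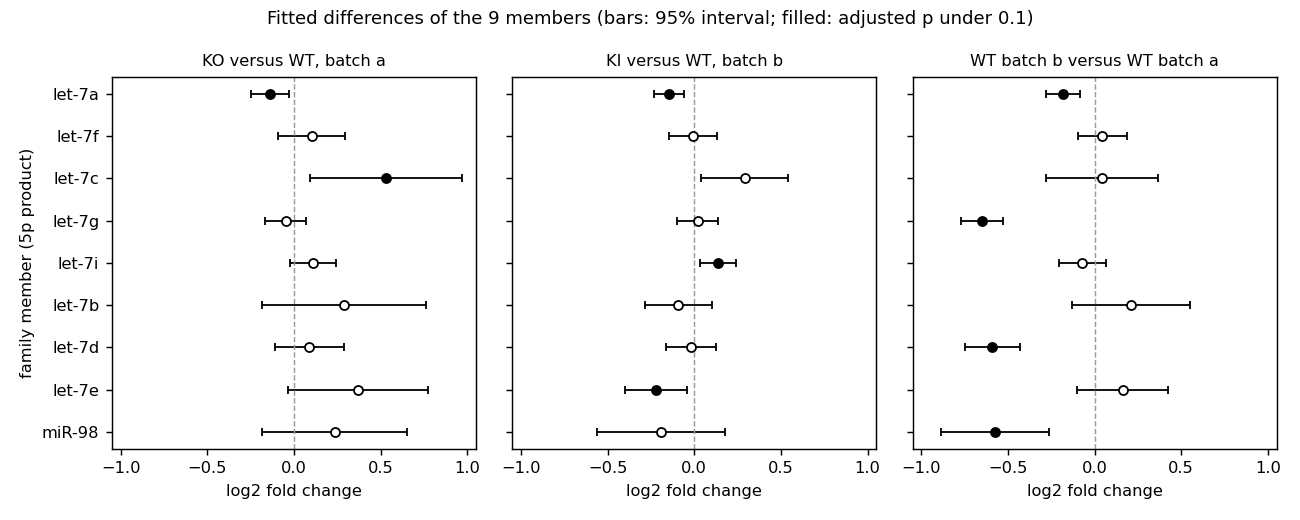
Fitted log2 fold changes of the 9 members with their 95% intervals for KO against WT in batch a, KI against WT in batch b, and WT of batch b against WT of batch a; filled points passed an adjusted p of 0.1 (edgeR). let-7c lies above 0 and let-7a below 0 in both genotype comparisons, and let-7g, let-7d and miR-98 lie near -0.6 between the batches.

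Whether KO and KI had unequal effects was asked with the 4 groups fitted together. Of the 421 miRNAs tested, 0 passed (0%) with edgeR, and so did 0 of the 9 members, while DESeq2 called 21 miRNAs and again 0 members. Over all 421, 67 miRNAs had an unadjusted p under 0.05 with edgeR, and only let-7e among the members did. Its KO effect exceeded its KI effect by 0.59 on the log2 scale (SE 0.21, edgeR adjusted p = 0.202). For let-7c the difference of the effects was 0.23, with a 95% interval from -0.28 to 0.74, and fell to 0.037 without KO replicate 2. For let-7a it was 0.0051, with an interval from -0.15 to 0.16.

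Within the family, the mean share of let-7c was higher and that of let-7a lower in KO and in KI than in the WT of the same batch. These shares need no scaling between libraries, but they are parts of one whole, so a rise of one lowers the others. In batch a, let-7c made up 8.99% ± 2.31 of the family in the WT libraries and 13.1% ± 2.58 in those of KO (mean ± SD, n = 5 each). In batch b, the values were 10.3% ± 1.61 for WT and 13.1% ± 1.90 for KI (mean ± SD, n = 6 each). let-7a went from 61.9% ± 3.06 to 56.3% ± 3.35 in batch a and from 60.6% ± 2.88 to 56.8% ± 3.44 in batch b. Both members overlapped between genotypes in each batch.

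let-7i was the only member whose share did not overlap between KI and WT, and no member's share separated KO from WT. In CPM, let-7i did overlap, at 1604 to 1893 in WT of batch b and 1797 to 1930 in KI, where 14.5% of the miRNAs tested did not. As a share, let-7i held 2.99% to 3.45% of the family in WT of batch b and 3.53% to 3.84% in KI, with no overlap, and 2.77% to 3.26% in WT and 3.10% to 3.53% in KO of batch a, with overlap. No test was run on shares. let-7f went from 14.2% ± 0.940 to 15.3% ± 1.08 in batch a and from 16.4% ± 1.07 to 16.8% ± 1.22 in batch b, differences smaller than the SD of the KO and KI libraries.

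**Figure D3:**
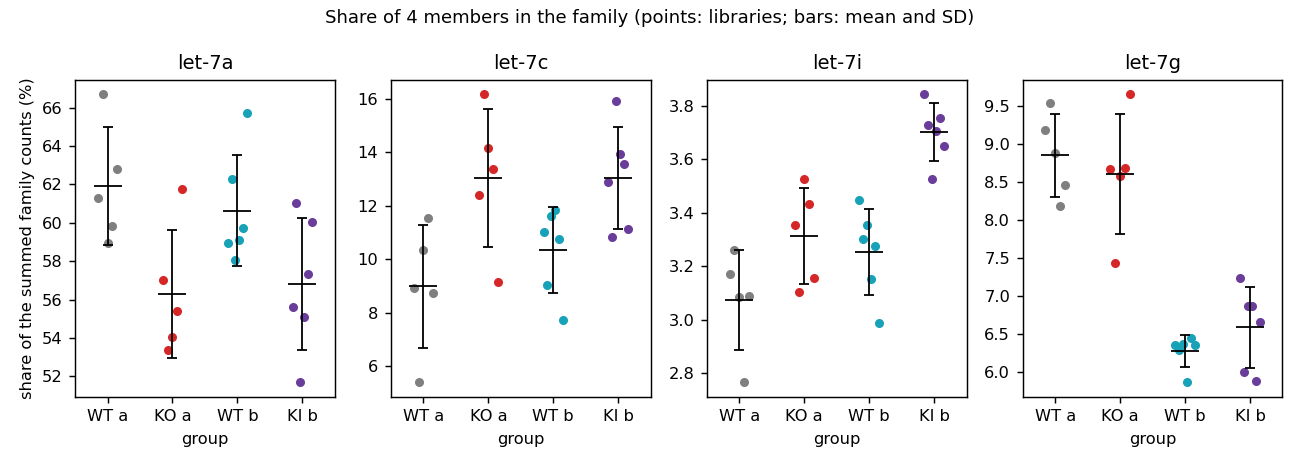
Share of let-7a, let-7c, let-7i and let-7g in the summed counts of the 9 members (%), by group; points are libraries and bars are mean and SD, and the axes do not start at 0. let-7c is higher and let-7a lower in KO and KI than in the WT of the same batch, and let-7g splits by batch, from 7.43% to 9.66% in batch a and from 5.86% to 7.23% in batch b.

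Some members differed more between the 2 sets of WT libraries than between genotypes. Of the 9 members, 4 passed, all lower in batch b, and 0 were higher. Over the 383 miRNAs tested, 56.7% passed, 26.9% higher and 29.8% lower. let-7g read 5119, 5098, 5224, 5028 and 4741 CPM in WT of batch a and 3078 to 3481 CPM (median 3429) in WT of batch b, so the batches were far apart. The log2 difference was -0.65 (SE 0.06, edgeR adjusted p = 5.14e-07). let-7d read 569 to 763 CPM in batch a and 414 to 478 CPM in batch b, the log2 difference being -0.59 (SE 0.08, adjusted p = 2.25e-05 by edgeR).

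miR-98 read 28.1 to 52.6 CPM in WT of batch a and 25.9 to 32.5 CPM in batch b, with overlap, the log2 difference being -0.57 (SE 0.16, adjusted p = 0.00671 by edgeR). let-7a differed by -0.18 (SE 0.05, edgeR adjusted p = 0.00647), a call that was lost with no filter on low counts (0.416). With CPM scaled within these 11 libraries, let-7g, let-7d and let-7a did not overlap, against 36.6% of the miRNAs tested, but let-7a overlapped when scaled over all 22. let-7b, let-7c, let-7e, let-7f and let-7i did not pass. By library total, 6 of the 9 passed, all lower, and over all miRNAs 47 of 240 calls were higher in place of 103 of 217. The batches also differed in the total counts assigned to miRNA names, with 870913 to 1081333 against 2067322 to 3239357 in WT. Sources of a batch difference cannot be told apart here.

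Members of one cluster shared a sign in some comparisons and not in others. In KI, the log2 differences of let-7a, let-7d and let-7f, the chromosome 13 cluster, were all below 0 (-0.15, -0.02 and -0.0078). let-7b and let-7c had 0.29 and 0.53 in KO but -0.09 and 0.29 in KI, and let-7f and miR-98 had 0.10 and 0.23 in KO and -0.0078 and -0.19 in KI. Of these members, let-7c and let-7a passed in KO and let-7a in KI, and the intervals of let-7b, let-7d, let-7f and miR-98 included 0 in both. On chromosome 13, let-7a had a log2 difference of -0.14 in KO where let-7f and let-7d had 0.10 and 0.09, and between the WT batches let-7d had -0.59 where let-7f had 0.05. On the X chromosome, miR-98 had -0.57 between the batches beside the 0.05 of let-7f. let-7a and let-7f each have a second locus, and their counts cannot be split between loci.

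Replicates of a group differed mostly in let-7b, let-7c, let-7e and miR-98. The coefficient of variation within a group was 2.84% to 8.49% for let-7a and 2.45% to 7.84% for let-7i, against 14.3% to 30.3% for let-7c, 10.6% to 35.3% for let-7b, 7.22% to 25.7% for let-7e and 8.58% to 33.5% for miR-98, which has few counts. WT replicate 2 of batch a was the lowest of its group for all of these, at 498 CPM for let-7b, 2884 for let-7c, 75.7 for let-7e and 28.1 for miR-98. After each group was centred on its own mean, let-7b and let-7c varied together over the 22 libraries (Pearson r = 0.94), as did let-7c and let-7f (0.90), let-7c and let-7e (0.88) and let-7b and let-7e (0.88). let-7a did not follow them, with r from -0.15 to 0.08. These correlations are descriptions without a test, and the points share the scaling and depth of each library, and let-7b and let-7c share a cluster and 16 first bases.

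**Figure D4:**
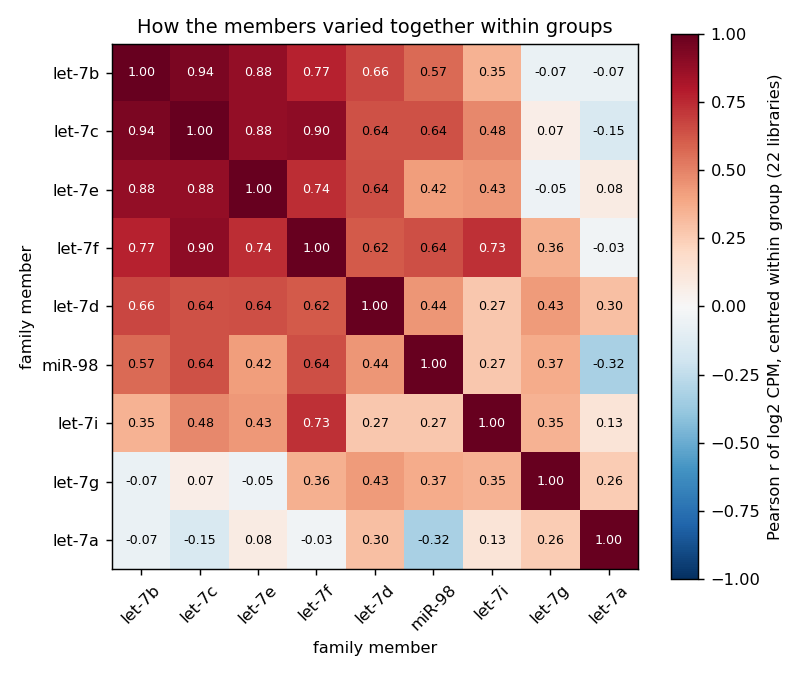
Pearson r between the log2 CPM of each pair of members over 22 libraries after centring within the 4 groups, from blue (-1) to red (1). let-7b, let-7c, let-7e and let-7f form a block with r from 0.74 to 0.94, and let-7a stays between -0.32 and 0.30 with every other member.

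The same 4 members moved with the vessel, smooth muscle and stroma list, but not as a rule with the other somatic lists. The vessel, smooth muscle and stroma list has 8 miRNAs, none at 0 in all libraries and 5 at a mean of 10 CPM or more, and is led by miR-199a-3p, a miRNA of fibroblasts and other mesenchymal cells. Its sum ranged from 773 to 2140 CPM in WT and 1947 to 4048 CPM in KO of batch a, and from 1423 to 2363 CPM in WT and 2211 to 4955 CPM in KI of batch b. miR-199a-3p averaged 1676 CPM and miR-199a-5p 507 CPM over the 22 libraries, so the sum is mostly these. Of the 5 tested, 4 were higher in KO and 4 in KI, and none was lower, against 21.3% and 18.1% higher over all miRNAs tested. miR-126a-3p did not pass, with log2 differences of 0.38 (SE 0.29) in KO and -0.04 (SE 0.25) in KI. The within-group correlation with the sum of the list was 0.96 for let-7c, 0.90 for let-7f, 0.85 for let-7b and 0.77 for let-7e (n = 22 libraries), against 0.66 for miR-98, 0.59 for let-7d, 0.49 for let-7i, 0.17 for let-7g and -0.19 for let-7a. With the summed miRNAs beside the members, described further on, it was 0.93 for let-7c, 0.71 for let-7f, 0.94 for let-7b and 0.79 for let-7e. With the blood and immune list it was 0.14, 0.50, -0.06 and 0.10, and with the striated muscle list 0.18, 0.23, -0.04 and 0.13.

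WT replicate 2 of batch a, the lowest in let-7c, was also the lowest in the vessel, smooth muscle and stroma sum. KO replicate 2 and KI replicate 3 were the highest of their groups in both.

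**Figure D5:**
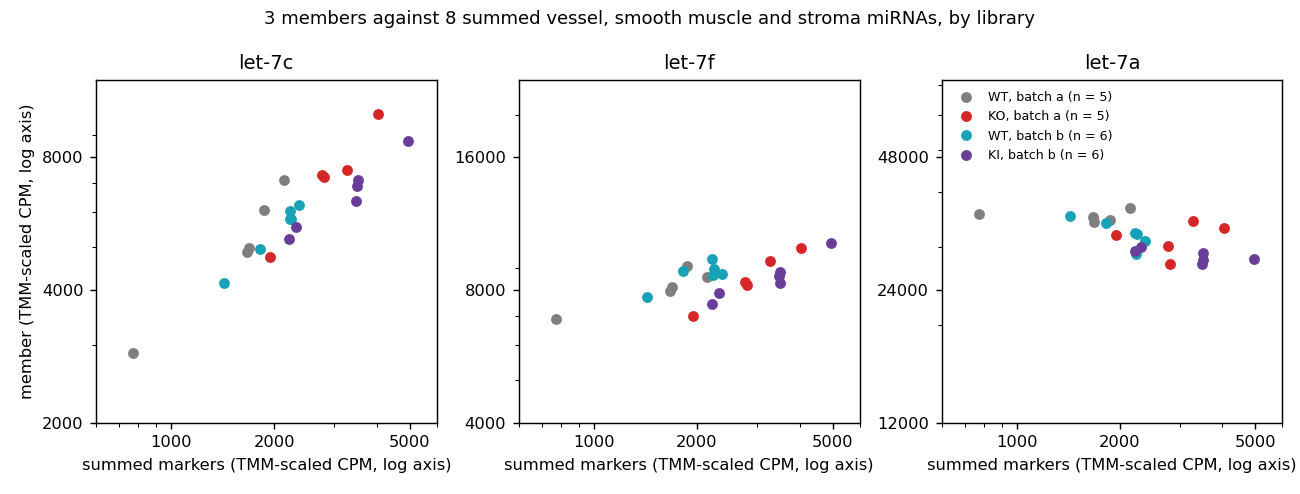
Level of let-7c, let-7f and let-7a in each library (TMM-scaled CPM) against the sum of 8 vessel, smooth muscle and stroma miRNAs (TMM-scaled CPM), on log axes, with the y axes covering an equal fold range. let-7c climbs with the sum in each group, from 2884 to 10054 CPM, let-7f does so less steeply, and let-7a shows no such rise.

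The blood and immune list varied most closely with let-7g. It has 8 miRNAs, none at 0 in all libraries, and summed to 4121 to 5184 CPM in WT and 4476 to 6268 CPM in KO of batch a, and to 2993 to 4013 CPM in WT and 3731 to 5983 CPM in KI of batch b. Of 6 tested, 3 were higher in KO and 5 in KI, against 21.3% and 18.1% higher over all miRNAs tested. Its within-group correlation was 0.77 with let-7g, 0.55 with let-7i, 0.50 with let-7f and 0.14 with let-7c. The RS and late germ cell list fell in 6 of 9 miRNAs in KO and in 6 of 9 in KI. Over all miRNAs tested, 20.7% and 19.9% were lower. The sum of this list correlated with let-7g at 0.59 and with let-7b at -0.60. The striated muscle list had miR-133b-3p and miR-206-3p at 0 in all libraries. Of those tested, 1 of 1 was higher in KO, 0 of 2 in KI and 2 of 2 in WT of batch b. The shares higher over all miRNAs were 21.3%, 18.1% and 26.9%. The part of any of these cell types in the members' levels was not tested.

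Of the miRNAs beside the members, 8 names had a locus within 10000 bases on the same strand, and 4 averaged 10 CPM or more. miR-99a-5p, 711 bases from let-7c on chromosome 16, rose in KO from 80.6 to 203 CPM in WT to 144 to 318 CPM, the log2 difference being 0.68 (SE 0.24, adjusted p = 0.0493 by edgeR). It rose in KI too, from 161 to 324 CPM in WT to 288 to 598 CPM, by 0.66 (SE 0.20, edgeR adjusted p = 0.0214). Both were in the direction of let-7c. miR-100-5p, 5274 bases from the second let-7a locus, fell in KI by 0.64 on the log2 scale (SE 0.16, edgeR adjusted p = 0.00766) and differed by -0.37 (SE 0.18) in KO without passing.

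Beside let-7e, miR-99b-5p at 151 bases fell in KI by 0.34 on the log2 scale (SE 0.10, edgeR adjusted p = 0.0182), the direction of let-7e there, and differed by 0.19 (SE 0.26) in KO. miR-125a-5p, at 430 bases, rose in KO by 0.51 (SE 0.22, edgeR adjusted p = 0.0892) and differed by 0.03 (SE 0.12) in KI. Of the neighbours tested, 2 of 4 were higher in KO and none lower, and in KI 1 of 5 was higher and 2 lower. Over all miRNAs tested, 21.3% were higher and 20.7% lower in KO, and 18.1% higher and 19.9% lower in KI. So few neighbours cannot be told from these shares.

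The passenger arms were scarce. Of the 12 names for 3p products of the family, 2 were at 0 in all libraries and only let-7i-3p averaged 10 CPM or more, at 10.3 CPM. let-7i-3p ranged from 2.77 to 6.79 CPM in WT of batch a and from 9.23 to 20.3 CPM in WT of batch b, and the log2 difference of 1.21 passed (edgeR adjusted p = 0.0024), while let-7i itself had -0.07. It had 28 counts in all over the WT libraries of batch a and 163 over those of batch b, so the batch a values lay near the floor. None of the 3p products passed the low-count filter for KO. In KI 2 were tested and none passed, against 38.0% of all miRNAs tested. let-7a-1-3p and let-7c-2-3p have identical sequences and were counted 88 and 76 times over all libraries, with equal counts in 13 of 22.

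The names most like the summed family across the 22 libraries, centred within each batch and taken from 321 names of at least 10 CPM, were miR-219a-5p with a Pearson r of 0.59, miR-463-5p with 0.54 and miR-181b-5p with 0.53. The sum is mostly let-7a, and the points share depth and scaling.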

How the data were processed

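Small RNA libraries of RS were compared in the groups of the labels: WT and KO of batch a, WT and KI of batch b. The deposited values are counts of reads for each mature miRNA name. The authors, as their methods and the table header give it, trimmed reads with cutadapt 3.4, aligned them to GRCm38 (mm10) with Bowtie2 2.4.2 in local mode with many alignments allowed per read, kept duplicates and counted strand-specifically with featureCounts 2.0.1. Whether a read was counted at each of its loci is not stated, which bears on let-7a, let-7c and let-7f. The equal fits of miR-297b-3p and miR-297c-3p would follow if it was. Reads are not independent molecules, so the 3-count floor covers counting error only.

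Each comparison was fitted on the whole table in edgeR 4.0.16 (R 4.3.3, quasi-likelihood F-test, TMM, filterByExpr, genotype as the only term), with Benjamini-Hochberg adjustment over all miRNAs tested and the study's threshold of 0.1. The study used DESeq2, run here as an alternative (1.42.0). SE are the log2 fold change divided by the root of F. Other alternatives were library totals, RLE, TMM without the members, no filter, a 10 CPM filter, a replicate block, 1 fit of 4 groups and each library left out. Sequences are from RefSeq, and figures were drawn with matplotlib 3.10.9. The family, lists and tests were chosen with earlier results of these data known, although the rule for its members uses names and no values. The named miRNAs were the 9 members, their 3p products, neighbours within 10000 bases at 10 CPM or more, names of the same seed and the 3 names most like the family sum. The methods put the KI batch first, and the order of the labels was used here.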

Additional observations from a re-analysis of the deposited data

How the results depend on the processing

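For KO, 2 members passed in the reported fit, 1 with DESeq2, with RLE, with no filter and with the 10 CPM filter, and 0 with a replicate block. Leaving out 1 library gave 0 to 4, with 0 without WT replicate 2 or KO replicates 3 or 4 and 4 without KO replicate 5. For KI, 3 passed, against 4 with DESeq2, RLE, TMM without the members, the 10 CPM filter and the replicate block, 2 by library total, and 1 with no filter and in the fit of all 4 groups. Leaving out 1 library gave 0 (without WT replicate 6) to 3, with 1 without WT replicate 3. Between the WT batches 4 passed under every left-out library, and for the difference of the effects 0 did. The family share differed by 0.216 to 0.728 percentage points in KO and by 0.0515 to 0.169 in KI when 1 library was left out.

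The labels do not say whether equal replicate numbers mark paired samples, so the reported fits have no pairing and the block is an alternative. The values below do not decide this: same-numbered libraries did not all deviate together, but some of batch b did. The KI call of let-7c depends on it, with an edgeR adjusted p of 0.103 without the block and 0.00329 with it. Correlations ran from -0.20 to 0.30 for KO, with 2 of 5 pairs closest to their own number. For KI they ran from -0.12 to 0.56, and pairs 2, 3 and 6 (r = 0.56, 0.39 and 0.28) were closest to their own number. The striated muscle sum was 42.5 CPM in WT and 38.0 CPM in KI replicate 2 of batch b, against 279 to 758 CPM in the other libraries of that batch. As a description only, let-7c was higher and let-7a and let-7e lower in KI in 6 of 6 same-numbered libraries, and let-7i was higher in 5 of 6. In KO, let-7c was higher and let-7a lower in 4 of 5. How many of all miRNAs did the same was not counted. With the replicate block 124 miRNAs passed for KO in place of 140, 165 for KI in place of 147, and 25 for the difference of the effects in place of 0.

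The median of all miRNAs moved by library total to 0.13 in KO and -0.34 between the WT batches. With DESeq2, which was run without the low-count filter and so over more names, the medians were 0.16 and -0.20. Those of edgeR with no filter were 0.11 and 0.10. Signs turned as follows. By library total, let-7g in KO became 0.060, let-7d and let-7f in KI 0.067 and 0.078, and, between the WT batches, let-7b -0.14, let-7c -0.31, let-7e -0.18 and let-7f -0.29 (the only one of these to pass, adjusted p = 0.00685). With TMM without the members, let-7c and let-7f between the batches became -0.018 and -0.0016. With the 10 CPM filter they became -0.021 and -0.015, and let-7f in KI became 0.011, against 0.0072 with RLE. With no filter, let-7i between the batches became 0.024. In the fit of all 4 groups, let-7g in KI became -0.0013. For the difference of the effects, let-7a became -0.055 with DESeq2, -0.056 with RLE, -0.079 with no filter, -0.037 with the 10 CPM filter and -0.00096 with the replicate block, and let-7i 0.00068 by library total. With 1 library left out, let-7d in KI ranged from -0.070 to 0.028, let-7f from -0.067 to 0.040 and let-7g from -0.019 to 0.055. Between the batches let-7c ranged from -0.10 to 0.14 and let-7f from -0.0038 to 0.10. For the difference of the effects let-7c ranged from 0.037 to 0.38, let-7a from -0.12 to 0.057, let-7d from -0.0046 to 0.18 and let-7f from -0.022 to 0.16. The cause of these changes was not tested. No member whose sign turned had passed in that comparison in the reported fit. The libraries of batch a had fewer counts assigned to miRNA names, and miR-98 at 25 to 95 counts was the member most limited by low counts.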
